A study of Mus musculus with 12 samples.

Results

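p53, encoded by Trp53, and 8 of its textbook target genes (Cdkn1a, Mdm2, Ccng1, Perp, Sesn1, Sesn2, Trp53inp1 and Phlda3) were followed in Leydig cells, the testosterone-producing cells between the seminiferous tubules of the testis. The members were all non-control probes of the array whose gene name is one of these 9 symbols, which gave 16 of 41174 probes. All 9 genes passed the filter on dim probes with at least 1 probe (13 of the 16 probes), among 15830 genes tested. The targets serve growth arrest, stress defence and adhesion.

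The cells were cut by laser capture from frozen testis sections of male C57BL/6J mice aged 21 weeks, and RNA of single mice was amplified for 2 rounds. The DEHP group, 2 mice numbered 1 and 4, had been dosed by gavage with the plasticiser di-(2-ethylhexyl) phthalate, 200 mg per kg daily for 21 days, dissolved in corn oil. The vehicle group, 3 mice numbered 1, 2 and 4, was given the oil without DEHP, and the labels name no engineered allele in either group. Every pairing of a DEHP with a vehicle mouse was put on 2-colour Agilent arrays with both dye assignments, so that 12 arrays hold 5 animals.

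p53 is a transcription factor that is kept low in unstressed cells, since the ubiquitin ligase Mdm2, itself a p53 target, marks it for destruction. After DNA damage, oxidative stress or other stress the protein is stabilised, and it binds response elements made of paired half-sites near genes for cell cycle arrest, repair, antioxidant defence and cell death. Most of that control acts on the protein, so the Trp53 transcript is no measure of p53 activity, and the levels of the target transcripts are the nearer readout on an expression array. In the testis p53 is best known from spermatocytes and from germ cells after irradiation.

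Response elements are what joins these genes into one group, so letters that match them are printed first, from the promoters of Cdkn1a, the best known target, and of 2 others. The 250 bases before each annotated start were searched on both strands in RefSeq sequences of GRCm38.p6, which held 9 windows for 7 of the 9 genes. The first search was for the letters CATG, any 6 bases and CATG again, the spacing of the cores of adjoining half-sites. It was found in 1 of the 9 windows, that of the upstream Cdkn1a start, and in 0.49% of 32851 promoter windows of all genes. The second search, for the p53 half-site consensus, matched in 5 of the 9 windows (in Sesn1, Mdm2, Ccng1, Trp53 and Cdkn1a) and in 7.13% of all windows; 1 of the Cdkn1a half-sites overlaps the paired cores. Below, capitals mark the paired cores in Cdkn1a (chr17:29090888-29090978, plus strand, with the cores at -48 to -35 from the start) and the half-site in Ccng1 (chr11:40755447-40755486, minus strand, at -185 to -176) and in Sesn1 (chr10:41887251-41887290, plus strand, at -173 to -164). These are matches of letters and no measurement of binding.
Cdkn1a: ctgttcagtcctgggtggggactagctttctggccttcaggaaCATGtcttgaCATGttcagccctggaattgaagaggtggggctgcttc
Ccng1: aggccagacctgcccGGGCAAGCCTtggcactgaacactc
Sesn1: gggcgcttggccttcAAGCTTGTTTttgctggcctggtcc

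Facts of the whole set bear on every value below. The red channel was well above background at 45.4% to 54.4% of probe spots and the green channel at 35.5% to 46.1%. All 10 Leydig cell markers, led by Star, Cyp11a1 and Cyp17a1, were measured, as were all 10 spermatid markers. The extracts differed in marker transcripts within each group. The median of the Leydig cell markers was 0.67 in DEHP mouse 1 but -0.74 in DEHP mouse 4, while vehicle mice 1, 2 and 4 had -0.46, 0.22 and 0.40. Every mouse value here and below is a log2 level from a fit on the 12 arrays, with the mean of all 5 animals set to 0. In such bulk extracts fewer cells of a type and less RNA per cell cannot be told apart.

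After DEHP, none of the 9 genes passed the test across all genes. Perp had the largest difference: both DEHP mice were below all 3 vehicle mice, at about 0.531 times the vehicle level. Of the others, 4 genes lay above 0 (Trp53, Cdkn1a, Mdm2 and Trp53inp1) and 4 below (Ccng1, Sesn1, Sesn2 and Phlda3), each by less than the range of the mice within at least 1 group. In limma on the 5 mouse values, with Benjamini-Hochberg adjustment over 15830 genes, 0 of 9 passed an adjusted p of 0.05, against 0% of all genes, and the adjusted p was 1.00 for each. At an unadjusted p under 0.05 there was 1 gene of 9, Perp, against 0.859% of all genes in either direction, 0.354% in the lower and 0.505% in the higher direction. The groups did not overlap for that 1 gene, against 5.22% of all genes in the lower direction and 9.17% in either. The median difference of the 9 genes was -0.03, that of all genes -0.01, and 51.7% of all genes lay below 0 as 5 of these 9 did. Without DEHP mouse 4 the signs of Mdm2, Sesn1, Sesn2 and Phlda3 turned and the median was 0.16, without DEHP mouse 1 those of Cdkn1a and Trp53inp1 turned, without vehicle mouse 1 that of Trp53inp1 and without vehicle mouse 2 that of Sesn2.

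**Figure D1:**
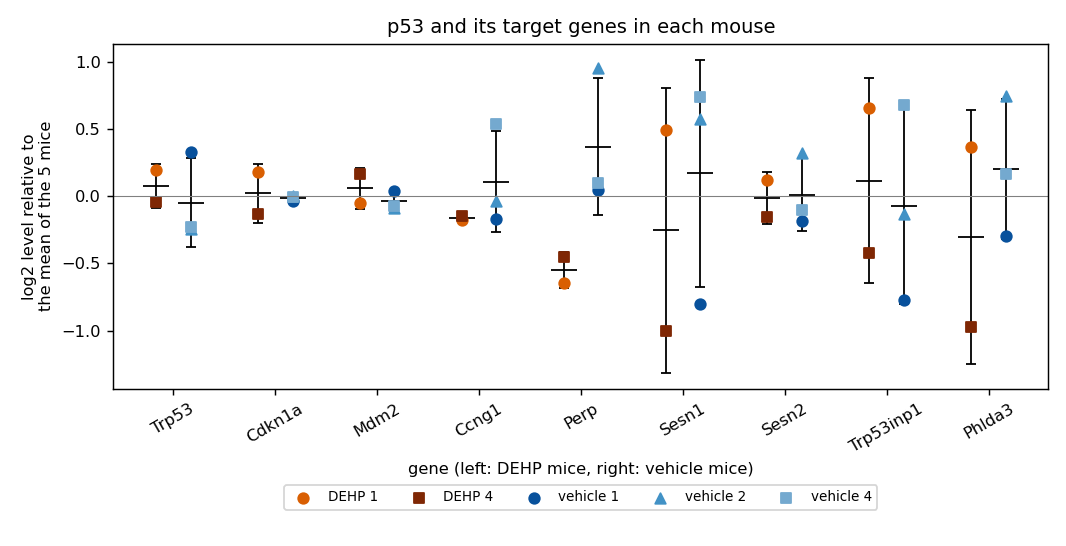
Log2 level of each of the 9 genes in each mouse, with the mean of all 5 animals set to 0, and with the 2 DEHP mice on the left and the 3 vehicle mice on the right of each gene; black lines are the group mean and SD (n = 2 and n = 3). Perp separates the groups, with DEHP mice at -0.64 and -0.45 and vehicle mice from 0.04 to 0.95, while Sesn1, Trp53inp1 and Phlda3 are spread widely within both groups.

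Trp53 itself was measured on a probe at mm7 chromosome 11, 69662031 to 69662089, which was well above background on all 12 arrays in both groups. Its level was 0.19 (DEHP mouse 1) and -0.04 (DEHP mouse 4), with vehicle mice 1, 2 and 4 reading 0.33, -0.25 and -0.23. Vehicle mouse 1 was the highest of all and the DEHP mice lay between the vehicle mice. The group difference was 0.12 (SE 0.26, 95% interval -0.52 to 0.77), with an exact two-sided permutation p of 0.6, where the smallest that 2 against 3 mice can give is 0.1. Leaving out 1 mouse moved the difference between 0.0062 (without DEHP mouse 1) and 0.32 (without vehicle mouse 1). From the highest, the order was vehicle 1, DEHP 1, DEHP 4, vehicle 4 and vehicle 2, of which the last 2 differed by -0.02 (vehicle 2 minus vehicle 4, limma on the 12 arrays, adjusted p 0.828).

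The Trp53 probe also had a dye effect, 0.31 higher in Cy5 than in Cy3, and 5 of the 6 arrays with DEHP RNA in Cy5 were above 0. In the other orientation 3 of 6 were above 0. The design holds both orientations for each pair of mice, and the fit takes the dye effect out. A second Trp53 probe, spotted 10 times on each array, lies 9.18 kb further downstream in the gene, at 69671206 to 69671265. It was well above background on none of 12 arrays in the DEHP channel and 2 of 12 in the vehicle channel and did not pass the filter, so no fold is given for it. The level of Trp53 thus rests on the upstream probe, and which transcript that probe reads could not be checked here.

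Likeness to Trp53 was taken as the Euclidean distance over the 5 mouse values. The 3 nearest genes with a symbol were Sfmbt1 (0.0814), a chromatin-binding protein, Fzr1 (0.0975), an activator of the anaphase-promoting complex, and Ptms (0.117), parathymosin. In Sfmbt1 the values were 0.18 and 0.03 in the DEHP mice and 0.32, -0.29 and -0.25 in vehicle mice 1, 2 and 4.

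**Figure D2:**
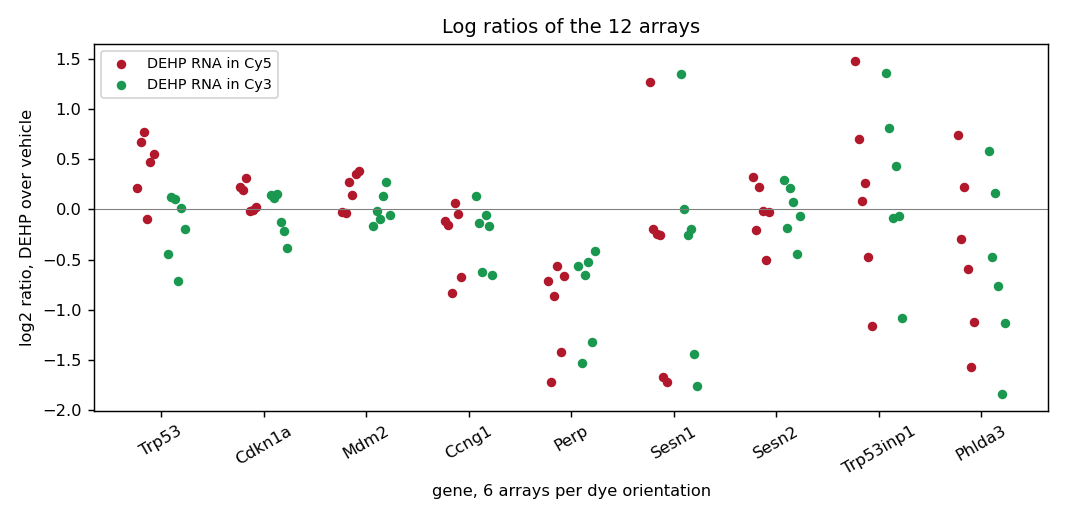
Log2 ratio of DEHP over vehicle on each of the 12 arrays for the probe used for each gene, split by the dye of the DEHP RNA (6 arrays each). Perp lies below 0 on all 12 arrays, from -1.72 to -0.41, and Trp53 lies higher where the DEHP RNA carried Cy5.

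Mdm2, the ligase that limits p53, lay close to background. Its brighter probe (chromosome 10, 117200593 to 117200652) had a low signal but was well above background on 11 of 12 arrays in each channel. It read -0.05 (DEHP mouse 1) and 0.17 (DEHP mouse 4), with vehicle mice 1, 2 and 4 reading 0.04, -0.09 and -0.07. DEHP mouse 4 was the highest, and DEHP mouse 1 fell among the vehicle mice. The difference was 0.10 (SE 0.19, 95% interval -0.38 to 0.57). The second probe, with 10 spots, lies 3.45 kb upstream, was well above background on 4 of 12 arrays in the DEHP channel and 5 of 12 in the vehicle channel, and gave 0.12.

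Cdkn1a encodes p21, the inhibitor of cyclin-dependent kinases that carries p53-driven arrest. Its single probe (chromosome 17, 27293819 to 27293878, 10 spots) was well above background on 10 of 12 arrays in each group, and its signal was low. The level was 0.18 (DEHP mouse 1) and -0.13 (DEHP mouse 4), with vehicle mice 1, 2 and 4 reading -0.03, 0.00 and -0.01. The DEHP mice were the highest and the lowest, and the vehicle mice spanned 0.03. The difference was 0.04 (SE 0.20, 95% interval -0.45 to 0.52). On an array, the 10 spots of the probe had a median SD of 0.0982 (log2), which is the spread of spots within one hybridisation and not that between animals.

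Ccng1, cyclin G1, recruits a phosphatase to Mdm2. Its brighter probe (chromosome 11, 40693768 to 40693827) read -0.18 and -0.15 in the DEHP mice, and -0.17, -0.04 and 0.53 in vehicle mice 1, 2 and 4. Vehicle mouse 4 stood above the other 4 mice, which lay close together. The difference was -0.27 (SE 0.27, 95% interval -0.94 to 0.40), and without vehicle mouse 4 it was -0.06. A second probe, 1.99 kb downstream, was also above background on every array but had another pattern, at 0.36 and -0.88 in the DEHP mice and -0.65, 0.35 and 0.82 in vehicle mice 1, 2 and 4. The probes of Ccng1 therefore differed by mouse, although both gave a difference below 0 (-0.44 for the second).

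Perp is a membrane protein of desmosomes in stratified epithelia, first found as a p53 target in dying cells. Its single probe (chromosome 10, 18579623 to 18579682) exceeded background clearly on every array in both channels. The level was -0.64 (DEHP mouse 1) and -0.45 (DEHP mouse 4), with vehicle mice 1, 2 and 4 reading 0.04, 0.95 and 0.10. Vehicle mouse 2 was the highest by far, and even the lowest vehicle mouse lay above both DEHP mice. The log2 difference was -0.91 (SE 0.33, 95% interval -1.74 to -0.09), with an unadjusted limma p of 0.035 and an adjusted p of 1.00. The exact two-sided permutation p was 0.1, the smallest these groups can give. All 12 arrays had a ratio below 0, and in the authors' deposited table the 10 arrays with a value were below 0 as well, with a median of -1.04. Without vehicle mouse 2 the difference was -0.62 (adjusted p 1.00 in limma), the value nearest 0 among the fits that leave out 1 mouse.

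Within slides, the ratio for Perp lay at -1.11 on slide 1, -0.99 on slide 2 and -0.65 on slide 3, where slides 1 and 2 hold 1 dye orientation each and slide 3 holds all arrays of vehicle mouse 4. Perp differed among the vehicle mice themselves: vehicle 1 minus vehicle 2 was -0.91 (SE 0.05), and vehicle 2 minus vehicle 4 was 0.85 (SE 0.05). As a median, though not in each gene, myoid markers (Acta2, Myh11 and Cnn1 first in the list) were also highest in vehicle mouse 2. Their medians were 0.01 and -0.68 in the DEHP mice and -0.21, 0.70 and 0.21 in vehicle mice 1, 2 and 4. All 8 of them were tested and 7 of 8 lay below 0 after DEHP; their summed linear level ran from 24500 to 52000 in the DEHP mice and from 33700 to 133000 in the vehicle mice. Of 10 epithelial markers, 7 were tested (Krt8, Krt18 and Krt5 among them), 6 of them above 0, with a summed level of 963 to 1230 in the DEHP mice and 1030 to 1230 in the vehicle mice. Krt14, Cdh1 and Dsg2 did not pass the filter. Krt8 was well above background on all 12 arrays in both channels. Krt18 was so on 6 in the DEHP channel and 5 in the vehicle channel, and Krt5 on 5 in each. Signal near background thus limits what the epithelial sum can show. The median of the Sertoli cell markers separated the groups. It was -0.15 and -0.32 in the DEHP mice and 0.08, 0.17 and 0.19 in vehicle mice 1, 2 and 4. All 9 tested of 10 lay below 0, and Gata4 did not pass the filter. Taken singly, 2 of the 9 did not overlap between the groups, on the lower side, against 5.22% of all genes. The summed level of the 9 was 39100 to 57100 in the DEHP mice and 65600 to 74200 in the vehicle mice. The endothelial median was highest in vehicle mouse 2, at 0.295 and -0.26 in the DEHP mice against -0.655, 0.35 and 0.14 in vehicle mice 1, 2 and 4. Summed levels were 3910 to 6060 in the DEHP mice and 2700 to 11400 in the vehicle mice, with 7 of 8 tested and Tie1 not passing the filter. The part of any of these cells in the Perp result was not tested.

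**Figure D3:**
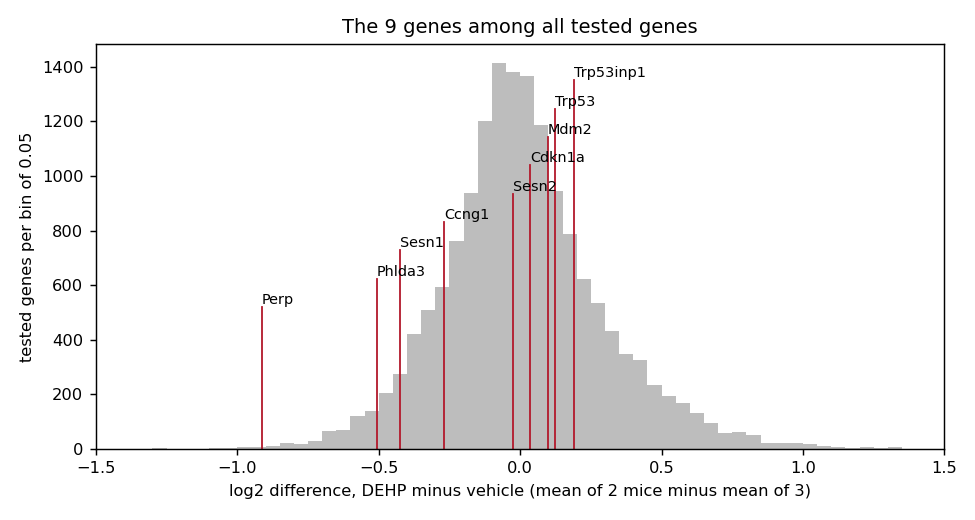
Number of tested genes by log2 difference, DEHP minus vehicle, in bins of 0.05, with the 9 genes marked by red lines whose heights only separate the names; 2 genes lie outside the plotted range. Perp, at -0.91, has a difference below that of all but 0.101% of the genes, and the other 8 genes lie between -0.51 and 0.19.

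Sesn1 and Sesn2 encode sestrins, stress proteins that hold back the growth kinase mTORC1 and help keep peroxiredoxins active. Sesn1 (chromosome 10, 41718855 to 41718914) was at 0.49 (DEHP mouse 1) and -1.005 (DEHP mouse 4), with vehicle mice 1, 2 and 4 reading -0.80, 0.57 and 0.74. DEHP mouse 4 and vehicle mouse 1 were low and the other 3 mice were high, so the groups overlapped. The difference was -0.43 (SE 0.64, 95% interval -2.00 to 1.15). Sesn2 (chromosome 4, 131870492 to 131870551) was at 0.12 and -0.15 in the DEHP mice and -0.18, 0.32 and -0.10 in vehicle mice 1, 2 and 4. Its difference was -0.03 (SE 0.24), and a second probe 0.884 kb upstream gave 0.02, with vehicle mouse 2 highest on both.

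Sesn1 had 3 probes whose readings differed. The probe used is the most downstream, and it was above background on every array. A probe 0.903 kb upstream was well above background on 9 of 12 and 10 of 12 arrays and gave a difference of 0.01. It read 0.06 and -0.05 in the DEHP mice and 0.22, 0.06 and -0.28 in vehicle mice 1, 2 and 4, another pattern by mouse. The third spans 4163 bases of the genome across an intron, 9.79 kb upstream, and was not well above background on any of the 12 arrays in either group, so no fold is given for it. The probe sequences of the coding parts of Trp53, Mdm2 and Sesn1 are printed here because they were well above background on fewer arrays than another probe of the same gene; every one is free of stop codons in at least 1 frame.
Trp53, 10 spots, not kept: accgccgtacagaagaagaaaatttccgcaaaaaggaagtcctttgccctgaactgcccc
Mdm2, 10 spots: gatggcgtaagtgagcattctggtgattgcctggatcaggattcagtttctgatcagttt
Sesn1, upstream probe: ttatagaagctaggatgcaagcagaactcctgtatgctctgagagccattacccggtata
Sesn1, probe across an intron, not kept: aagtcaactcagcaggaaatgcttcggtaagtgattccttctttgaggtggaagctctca

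**Figure D4:**
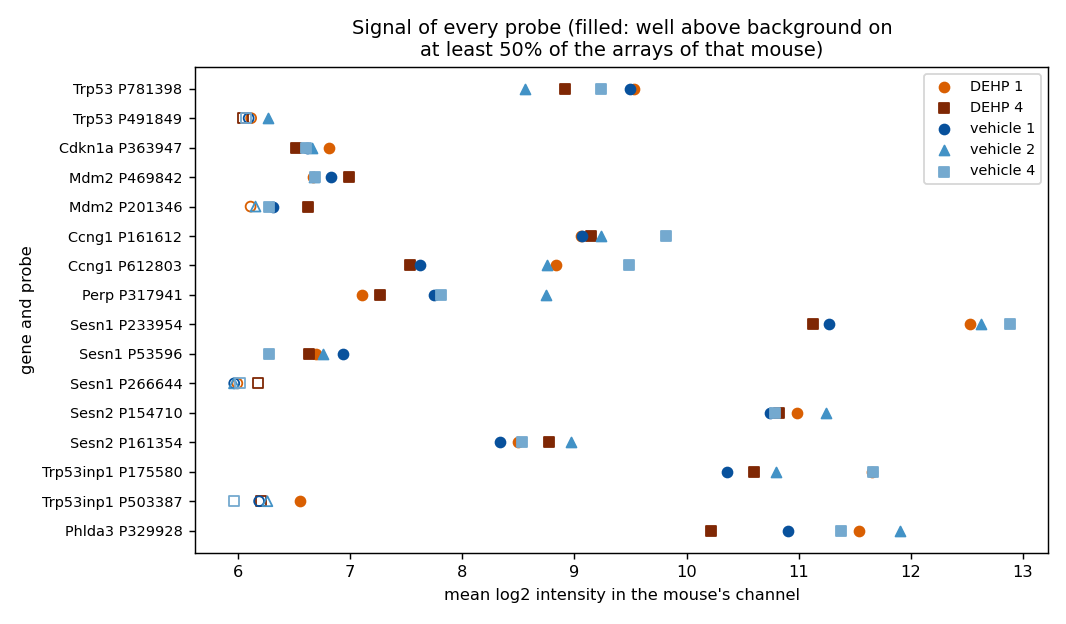
Mean log2 intensity of each of the 16 probes in the channel of each mouse; filled symbols mark mice with the probe well above background on at least 50% of their arrays. Intensities compare mice on one probe and not one probe with another. The second Trp53 probe and the intron-spanning Sesn1 probe are open in every mouse but vehicle mouse 2 for Trp53 (2 arrays), whereas the Sesn1 probe used is filled in all 5 mice.

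Trp53inp1 encodes a nuclear and autophagy protein that strengthens p53 activity. Its probe (chromosome 4, 11101174 to 11101233) read 0.65 (DEHP mouse 1) and -0.42 (DEHP mouse 4), with vehicle mice 1, 2 and 4 reading -0.77, -0.13 and 0.68. DEHP mouse 1 and vehicle mouse 4 were alike and high, and vehicle mouse 1 was lowest. The difference was 0.19 (SE 0.52, 95% interval -1.10 to 1.48). A second probe is made of a tandem repeat of 26 bases. It was well above background on 6 of 12 arrays in the DEHP channel and none in the vehicle channel. Its measured means were 6.38 and 6.14 (log2), but the groups overlapped, with DEHP mouse 4 at 6.20 and vehicle mouse 2 at 6.26. This probe did not pass the filter, so no fold is given for it, and 5 of those 6 arrays were of DEHP mouse 1.

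Phlda3 encodes a membrane-binding protein that competes with the kinase Akt for phosphoinositides. Its probe (chromosome 1, 135655060 to 135655119) read 0.36 (DEHP mouse 1) and -0.97 (DEHP mouse 4), with vehicle mice 1, 2 and 4 reading -0.29, 0.74 and 0.16. The DEHP mice stood at the second highest and the lowest place. The difference was -0.51 (SE 0.49, 95% interval -1.72 to 0.71).

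The gap between the 2 DEHP mice was larger than the difference between the groups in 7 of 9 genes. Tested between extracts with limma on the 12 arrays, DEHP mouse 4 minus DEHP mouse 1 passed an adjusted p of 0.05 in 8 of 9 genes, against 77.4% of all genes. Of these, 6 fell and 2 (Mdm2 and Perp) rose, where 41.1% of all genes fell and 36.3% rose. Ccng1 was not called on the probe used, but its second probe read 0.36 in DEHP mouse 1 and -0.88 in DEHP mouse 4. On the probes used, Sesn1 fell by 1.498 (SE 0.04), Phlda3 by 1.33 (SE 0.04) and Trp53inp1 by 1.08 (SE 0.07). Such a test compares 2 extracts and not conditions.

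The vehicle mice also differed from each other. Vehicle 1 minus vehicle 2 was called in 6 of 9 genes against 71% of all genes (1 higher against 33%, 5 lower against 38%). Vehicle 1 minus vehicle 4 was called in 5 of 9 against 68.8% (1 higher against 33.5%, 4 lower against 35.3%). Vehicle 2 minus vehicle 4 was called in 6 of 9 against 57.4% (3 higher against 29.1%, 3 lower against 28.3%). On the probe used, Sesn1 differed by -1.37 (SE 0.05) between vehicle mice 1 and 2 and by -1.54 (SE 0.05) between vehicle mice 1 and 4. Trp53inp1 differed by -1.45 (SE 0.08) between vehicle mice 1 and 4. In each of these 3 comparisons and between the DEHP mice, calls were common among all genes.

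Markers of cell types moved with these gaps. At a limma adjusted p under 0.05 on the 12 arrays, DEHP mouse 4 minus DEHP mouse 1 was called lower in 9 of 10 Leydig cell markers, 7 of 7 endothelial markers and 6 of 10 macrophage markers, against 41.1% of all genes, and higher in all 10 spermatid markers, against 36.3%. Vehicle 1 minus vehicle 4 was called lower in 9 of 10 Leydig cell markers, 7 of 7 endothelial markers and 9 of 10 macrophage markers, against 35.3% of all genes, and higher in 8 of 10 spermatid markers, against 33.5%. The spermatid median was 0.03 and 0.83 in the DEHP mice and 0.21, -0.74 and -0.45 in vehicle mice 1, 2 and 4, with Prm1, Prm2 and Tnp1 leading the list. On the probes used, Sesn1 was lowest in DEHP mouse 4 and vehicle mouse 1. So were Cdkn1a, Sesn2, Trp53inp1 and Phlda3, but not Trp53, Mdm2, Ccng1 and Perp. The Leydig cell, endothelial, macrophage and myoid medians were lowest in the same mice. The macrophage medians were 0.36 and -0.24 in the DEHP mice and -0.32, -0.01 and 0.43 in vehicle mice 1, 2 and 4. Among the second kept probes, that of Ccng1 had this pattern, but those of Sesn1, Sesn2 and Mdm2 did not. On that of Sesn1, vehicle mouse 1 was highest. Summed levels ran from 53100 to 160000 for Leydig cell markers in the DEHP mice and from 67200 to 163000 in the vehicle mice, and from 542000 to 674000 and 283000 to 441000 for spermatid markers. The part of composition in the levels of the 9 genes was not tested.

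**Figure D5:**
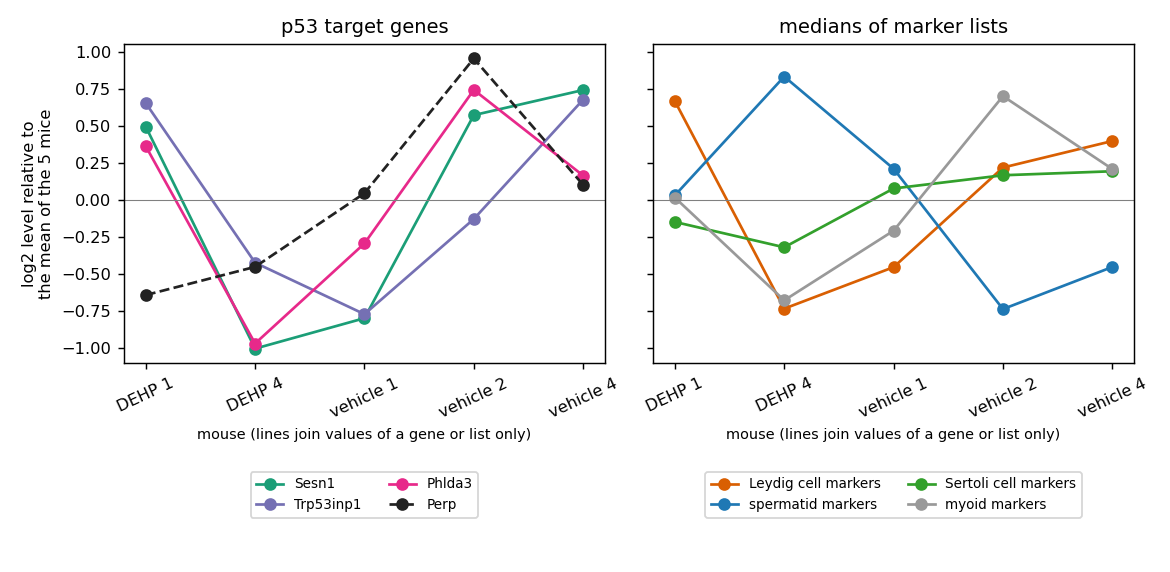
Left, log2 levels of Sesn1, Trp53inp1, Phlda3 and Perp in the 5 mice, their mean set to 0; right, medians of Leydig cell, spermatid, Sertoli cell and myoid marker lists in the same mice. Sesn1, on the probe used, falls from 0.49 in DEHP mouse 1 to -1.005 in DEHP mouse 4. Between the same mice the Leydig cell median goes from 0.67 to -0.74 and the spermatid median from 0.03 to 0.83.

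Between the groups, the spermatid markers had the largest median difference of the marker lists, 0.78, with 9 of 10 genes above 0; 3 had an unadjusted limma p under 0.05 (0.505% of all genes in the higher direction) and in 3 the groups did not overlap (3.95%), but none passed the adjusted test. The median difference was -0.57 for the myoid markers, -0.32 for the Sertoli cell markers (Clu, Sox9 and Wt1 first) and -0.185 for the Leydig cell markers. Spermatocyte markers (Sycp1, Sycp2 and Sycp3 first; 9 of 10 tested) had a median of 0.03, macrophage markers (Cd68, Csf1r and Cd163 first; 10 tested) of -0.01 and endothelial markers (Pecam1, Cdh5 and Kdr first; 7 of 8 tested) of -0.10.

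The regulators of p53 lay mostly on the higher side, with no gene past the test. Of 24 listed genes 20 were tested, 13 above 0 and 7 below, with a median of 0.11 against -0.01 for all genes (-0.03 without DEHP mouse 4). At an unadjusted limma p under 0.05 there was 1 gene of 20, on the higher side, where 0.505% of all genes were. Hipk1, a kinase that binds p53, had the lowest p: it was at 0.10 and 1.09 in the DEHP mice and -0.38, -0.31 and -0.50 in vehicle mice 1, 2 and 4. Both DEHP mice lay above the vehicle mice, DEHP mouse 4 by far the higher. The difference was 0.99 (SE 0.33, unadjusted p 0.0246, adjusted p 1.00 in limma). Usp7, which removes ubiquitin from p53 and Mdm2, differed by 0.48 (SE 0.26) and Daxx, a histone chaperone, by 0.23 (SE 0.22). The groups did not overlap in 4 regulators on the higher side (Hipk1, Usp7, Trp53bp2 and Kat5), where 3.95% of all genes did not. Of these, Trp53bp2 lay near background, well above it on 7 arrays in the DEHP channel and 3 in the vehicle channel. Kat5 differed by 0.11 (SE 0.18).

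Other p53 targets lay mostly on the lower side, again with no gene past the test. Of 45 listed genes 32 were tested, 11 above 0 and 21 below, with a median of -0.10 (0.07 without DEHP mouse 4). At an unadjusted limma p under 0.05 there were 0 genes of 32, against 0.859% of all genes. Bbc3, the death protein Puma, was at -0.12 and -0.55 in the DEHP mice and 0.41, 0.09 and 0.18 in vehicle mice 1, 2 and 4, and the groups did not overlap (difference -0.56, SE 0.23, unadjusted p 0.053, adjusted p 1.00 in limma). Cd82, a membrane tetraspanin, was at 0.88 and 0.25 against -0.11, -1.04 and 0.02. Both DEHP mice lay above all vehicle mice, and the group means differed by 0.94 (SE 0.40). Siva1, a death-promoting adaptor, differed by -0.30 (SE 0.19) and Btg2, an antiproliferative protein, by -0.39 (SE 0.30). The groups did not overlap for 1 gene on the higher side, Cd82, and for 4 on the lower side, Bbc3, Siva1, Pmaip1 and Gadd45b, where 3.95% and 5.22% of all genes did not. Between the DEHP extracts 21 of 32 were called lower in mouse 4 at a limma adjusted p under 0.05 and 3 were called higher, against 41.1% and 36.3% of all genes; Gpx1 fell by 1.85 and Fdxr by 1.55 there.

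Relatives of the 9 genes had no common direction. All 12 listed genes were tested, 5 with a difference above 0 and 7 with one below. Their median was -0.03, or 0.01 with median centring in place of loess. An unadjusted limma p under 0.05 was found for 0 of 12, against 0.859% of all genes. Cdkn1c, the p57 inhibitor, was at 0.07 and 1.02 in the DEHP mice and 0.13, -0.63 and -0.59 in vehicle mice 1, 2 and 4, so the groups overlapped at a difference of 0.90 (SE 0.39, unadjusted p 0.0604, adjusted p 1.00 in limma). Trp63, a p53 family member, differed by 0.31 (SE 0.21), Sesn3 by -0.24 (SE 0.19) and Mdm4, the partner of Mdm2, by 0.21 (SE 0.21). The groups did not overlap for 1 gene on the higher side, Trp63, and for 1 on the lower side, Sesn3. Among all genes 3.95% and 5.22% did not.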

How the data were processed

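The deposited scanner files, made with Feature Extraction 9.5.1.1 according to their headers, hold spot intensity per channel with 0 or 1 flags for background, saturation and outliers. They also hold a log10 ratio, per the file headers, used only to check directions. The authors' deposited value table holds log2 ratios whose normalization and filter are not given in the sources used here. Compared with the scanner ratios, its columns ran as DEHP over vehicle (r = 0.915 to 0.993, medians -0.06 to 0.00). For the authors' own steps the submitters' processing notes list limma.

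The scanner intensities were background-corrected by normexp with an offset of 50 (limma 3.58.1, R 4.3.3), arrays were normalized with loess (control spots at weight 0), control and outlier-marked spots were left out and spots of a probe averaged. Least squares on the 12 log ratios gave 5 mouse values and a dye effect per probe. A probe stayed in if 2 or more mice had it well above background on 50% or more of their arrays, and the brightest kept probe stood for a gene. limma's lmFit and eBayes tested the groups on the 5 mouse values and the extracts on the 12 arrays (adjusted p under 0.05, Benjamini-Hochberg). The number of arrays and mice limits the precision. The functions were tested on simulated data. Symbols were updated through RefSeq (10550 of 15830 genes by accession, 1894 by current and 971 by older symbol; 2415 keep the file's name). Probe positions are mm7. The same mouse numbers occur in both groups and were not used as pairs in the main fit. Deviations of same-numbered mice from their group means correlated at -0.73 and -0.56 over genes. This cannot decide whether the numbers pair the mice, since the deviations of the 2 DEHP mice are exact opposites.

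The members and the gene lists were chosen with earlier results of these data known. The text names every probe of the 9 genes, from each p53 list 4 genes by lowest p (no more than 4 past the threshold), the first 3 genes of each marker list and the 3 genes nearest to Trp53. A gene that this rule takes is not reported here. Trp53bp2, Kat5, Pmaip1, Gadd45b, Gpx1 and Fdxr were named after their values were seen. The labels speak of 4 mice per group; the others are not analysed here.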

Additional observations from a re-analysis of the deposited data

How the results depend on the processing

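Of 177 pairs of a gene and an alternative (background, normalization, filter, outlier spots, probe averaging, dye, slide, left-out mice, replicate block, unit of replication, the authors' table), 164 kept their direction and 13 reversed. Ccng1 and Perp kept theirs in all, Ccng1 from -0.696 to -0.0536 and Perp from -1.48 to -0.62. Some alternatives returned the main difference for every gene they covered. These were Aquantile normalization between arrays, no filter, the stricter filter, an own dye effect for slide 3 and the arrays as units. Probe averaging also changed nothing in genes with 1 kept probe. The count of kept directions therefore overstates how far direction was tested. Slide 2 alone turned Trp53 to -0.25 and Cdkn1a to -0.0196, and slide 3 alone Sesn2 to 0.0868 and Trp53inp1 to -0.56; slides 1 and 2 hold 1 dye orientation each, so their values include the dye effect. Leaving out 1 mouse gave ranges of -0.12 to 0.19 for Cdkn1a, -0.00928 to 0.21 for Mdm2, -1.18 to 0.32 for Sesn1, -0.16 to 0.13 for Sesn2, -0.35 to 0.73 for Trp53inp1 and -1.17 to 0.16 for Phlda3, of -0.25 to 0.16 for the median of the 9 genes and of 3 to 7 for the count below 0; for the list medians it gave -0.025 to 0.16 (regulators), -0.31 to 0.067 (other targets) and -0.17 to 0.14 (relatives). With the mouse number as a replicate block, vehicle mouse 2 (a number of its own) had no weight. Sesn2 was then at 0.13 and Perp at -0.62, and the block changed no call. Whether the numbers pair the mice could not be decided. Another kept probe, an alternative chosen after seeing the data, gave 0.0202 for Sesn2 and 0.00664 for Sesn1. The median of the 9 genes was -0.27 where a probe had to be above background on all arrays (Cdkn1a and Mdm2 drop out, and the relatives' median was -0.22), -0.47 on slide 3 alone and -0.22 in the authors' deposited table (8 genes, no Trp53inp1). Treating the 12 arrays as independent called 1 of the 9 genes, Perp (adjusted p 0.00121 in limma), and 2123 of all 15830 genes, but the arrays share 5 mice. Other causes were not tested. A dye effect per slide could not be fitted; slide 3 was given its own instead, an alternative added after seeing the data. Cdkn1a, Mdm2 and the second Trp53 probe lie near background, which limits their precision.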
